A study of Homo sapiens with 12 samples.

Results

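Extracellular proteases and their inhibitors were examined as 56 genes of the ADAM, matrix metalloproteinase (MMP), tissue inhibitor of metalloproteinases (TIMP) and cathepsin (CTS) families. They come from 14884 named genes, those with a transcript cluster to which the array annotation gives a single symbol. They were taken by family symbol among protein-coding genes, as 18 MMP, 4 TIMP, 19 ADAM and 15 cathepsin genes, with antisense and pseudogene symbols left out. The transcript cluster of highest mean was taken for each gene. The choice was made with earlier results of these data known. Genes of the ADAMTS and SERPIN families were not analysed here. Of the 56 genes, MMP24 and TIMP3 had 2 transcript clusters each and MMP25 had 3.

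MMPs are zinc proteases that cut collagens and other proteins of the extracellular matrix, and most are made as inactive proenzymes. TIMPs bind the active site of MMPs and of some ADAMs. ADAMs are transmembrane proteins, several of which release growth factors and receptors from the cell surface, while others have lost the zinc-binding site and act in adhesion. Cathepsins are proteases of the lysosome, mostly with a catalytic cysteine, and some are secreted by tumor cells. Together these enzymes are known for matrix remodelling and invasion in breast cancer.

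Transcript levels came from Affymetrix Human Gene 2.0 ST arrays of BT-549, a mesenchymal-like human triple-negative breast cancer cell line, in 3 stably transfected derivatives with 4 arrays each, all grown in complete medium. The control was BT-EV, which carries the empty vector in the description of the study and a control shRNA in the submitters' labels, and BT-A6sh5 and BT-A6sh2 carry different shRNAs against ANXA6, the gene of the calcium-dependent membrane-binding protein annexin A6. Each construct is represented by a single derivative line, so that an effect of the shRNA and a difference between lines cannot be told apart, and the arrays are called biological replicates in the titles and technical replicates in the paper, so that the p-values measure only the spread between these arrays. For BT-A6sh2 replicate 1 the description names the shRNA of BT-A6sh5, while its title names that of BT-A6sh2, whose group was kept for it.

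ANXA6 itself averaged 11.41 ± 0.026 (SD, n = 4 arrays) on the log2 scale in BT-EV, against 8.78 ± 0.096 in BT-A6sh5 and 10.45 ± 0.11 in BT-A6sh2, or 16.2% and 51.6% of the BT-EV level. The array of BT-A6sh2 with the discordant description measured 10.57, beside 10.32 to 10.50 on the other 3 arrays of its line and 8.69 to 8.89 on the BT-A6sh5 arrays. The spread between arrays was largest in BT-A6sh2, with a residual SD of 0.447 against 0.272 in BT-A6sh5 and 0.196 in BT-EV, and replicates 1 and 3 of that line had a narrower distribution than the other 10 arrays (SD over transcript clusters of 2.18 and 2.19, against 2.26 to 2.33). The hybridization control probe sets averaged 8.20 ± 0.09 (SD, n = 4) in BT-EV, against 8.76 ± 0.19 in BT-A6sh5 and 8.94 ± 0.19 in BT-A6sh2, and their part in the differences between the lines was not tested. The mesenchymal markers in BT-EV averaged 12.35 (FN1), 12.19 (SNAI2), 10.64 (VIM), 7.65 (ZEB1), 6.51 (ZEB2) and 6.38 (TWIST1). Of the 5 epithelial markers measured, EPCAM (3.47) lay below the array medians of 4.92 to 5.05. KRT19 (5.40), CLDN4 (5.56), KRT8 (6.21) and KRT18 (7.10) lay above them, the last 2 in the range of the lower mesenchymal markers. The receptor genes ESR1 and PGR, which are not active in triple-negative cells, averaged 5.03 and 3.96. Of the markers measured, SNAI2 fell by 1.23 and CD68 rose by 0.55 in BT-A6sh5, while FN1 and KRT18 fell by 0.43 and 0.53 in BT-A6sh2, and their part in the values below was not tested.

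Before the values, the sequence just upstream of the transcription start was inspected for the gene of largest rise and the gene of largest fall that had an entry in the RefSeq promoter table (ADAM19 and ADAM23), and for MMP10, whose window, like that of MMP20, holds both motifs searched. These 3 were chosen after their values were seen. Each window runs from 250 bases before to 50 bases after the start in GRCh38.p14 and is written 5′ to 3′ on the strand of the gene, with motif matches in capitals. ADAM19 lies at chr5:157575726-157576025 on the minus strand, ADAM23 at chr2:206443282-206443581 on the plus strand and MMP10 at chr11:102780579-102780878 on the minus strand.
ADAM19: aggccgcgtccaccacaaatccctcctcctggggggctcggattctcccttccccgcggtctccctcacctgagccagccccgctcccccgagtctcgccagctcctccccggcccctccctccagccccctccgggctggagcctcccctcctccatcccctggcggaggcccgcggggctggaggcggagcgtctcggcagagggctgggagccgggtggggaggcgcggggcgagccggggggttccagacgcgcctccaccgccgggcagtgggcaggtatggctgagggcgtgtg
ADAM23: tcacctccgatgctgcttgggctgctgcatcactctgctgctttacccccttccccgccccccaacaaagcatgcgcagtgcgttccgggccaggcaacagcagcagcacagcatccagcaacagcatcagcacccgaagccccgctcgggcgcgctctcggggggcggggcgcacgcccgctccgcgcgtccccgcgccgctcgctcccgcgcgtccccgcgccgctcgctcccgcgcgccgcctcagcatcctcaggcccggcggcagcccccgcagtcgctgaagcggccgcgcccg
MMP10: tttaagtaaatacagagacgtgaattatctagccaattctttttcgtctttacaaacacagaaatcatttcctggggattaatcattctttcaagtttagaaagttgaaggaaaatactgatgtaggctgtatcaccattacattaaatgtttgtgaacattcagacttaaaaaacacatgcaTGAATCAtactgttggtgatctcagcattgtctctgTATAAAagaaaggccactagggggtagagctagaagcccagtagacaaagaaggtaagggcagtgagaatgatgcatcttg

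The ADAM19 and ADAM23 windows are rich in G and C (75.7% and 74.7%), and neither holds an AP-1 motif (TGANTCA) or a TATA motif (TATAAA), searched on both strands. The MMP10 window is 36.3% G and C and holds TGAATCA 67 bases before the start and TATAAA 31 bases before it. Among the 35 of 56 genes with an entry, the AP-1 motif was found in 2 (5.71%), MMP10 and MMP20, against 7.76% of all 27305 promoters of the same length. The TATA motif was found in 6 of the 35 (17.1%), against 12% of all promoters. Both shares are descriptions of the letters in these windows.

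Against BT-EV, 9 of the 56 genes were higher in BT-A6sh5 and 8 were lower at an adjusted p of 0.05 (limma, Benjamini-Hochberg over all 53617 transcript clusters), and 39 did not pass. In a culture, fewer cells of a type and less RNA per cell cannot be told apart. These are 16.1% and 14.3% of the genes, beside a background of 6.3% higher and 12.7% lower among all named genes, and of 4.11% and 6.71% among all transcript clusters. The share of falls among the protease genes was therefore near that of all named genes. Only 3 genes, ADAM23, ADAM19 and MMP13, also passed a 2-fold change, which 3.18% of all named genes did. In BT-A6sh2, 0 genes were higher and 5 were lower (8.93%), beside 5.13% higher and 4.78% lower among named genes and 5.35% and 3.13% among transcript clusters. No gene in that line reached a 2-fold change, which 0.692% of the named genes reached, and 14 of the 56 (25%) had an unadjusted p under 0.05, beside 28.4% of the named genes.

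The median log2 fold change over the 56 genes was 0.09 (BT-A6sh5) and -0.08 (BT-A6sh2), beside 0.01 and -0.00 over all named genes. Both comparisons use the same BT-EV arrays. In the direct comparison of the knockdown lines, 15 genes were higher in BT-A6sh5 and 6 were lower (26.8% and 10.7%), beside 11.3% and 17.3% of named genes and 8.16% and 11.4% of transcript clusters. A 2-fold difference between the lines was passed by 5 genes, MMP13, ADAM12, ADAM19, ADAM23 and CTSL, against 3.86% of named genes. Of the 17 genes called in BT-A6sh5, 15 also differed between the lines, and these calls are not independent, since both use the BT-A6sh5 arrays. In all, 24 genes were called in at least 1 of the 3 comparisons. The matching shares of all named genes were not computed for either count, so that both are descriptions only. The 22 genes that were neither called nor among those chosen for their level had log2 fold changes from -0.37 to 0.31 in BT-A6sh5 and from -0.26 to 0.35 in BT-A6sh2.

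**Figure D1:**
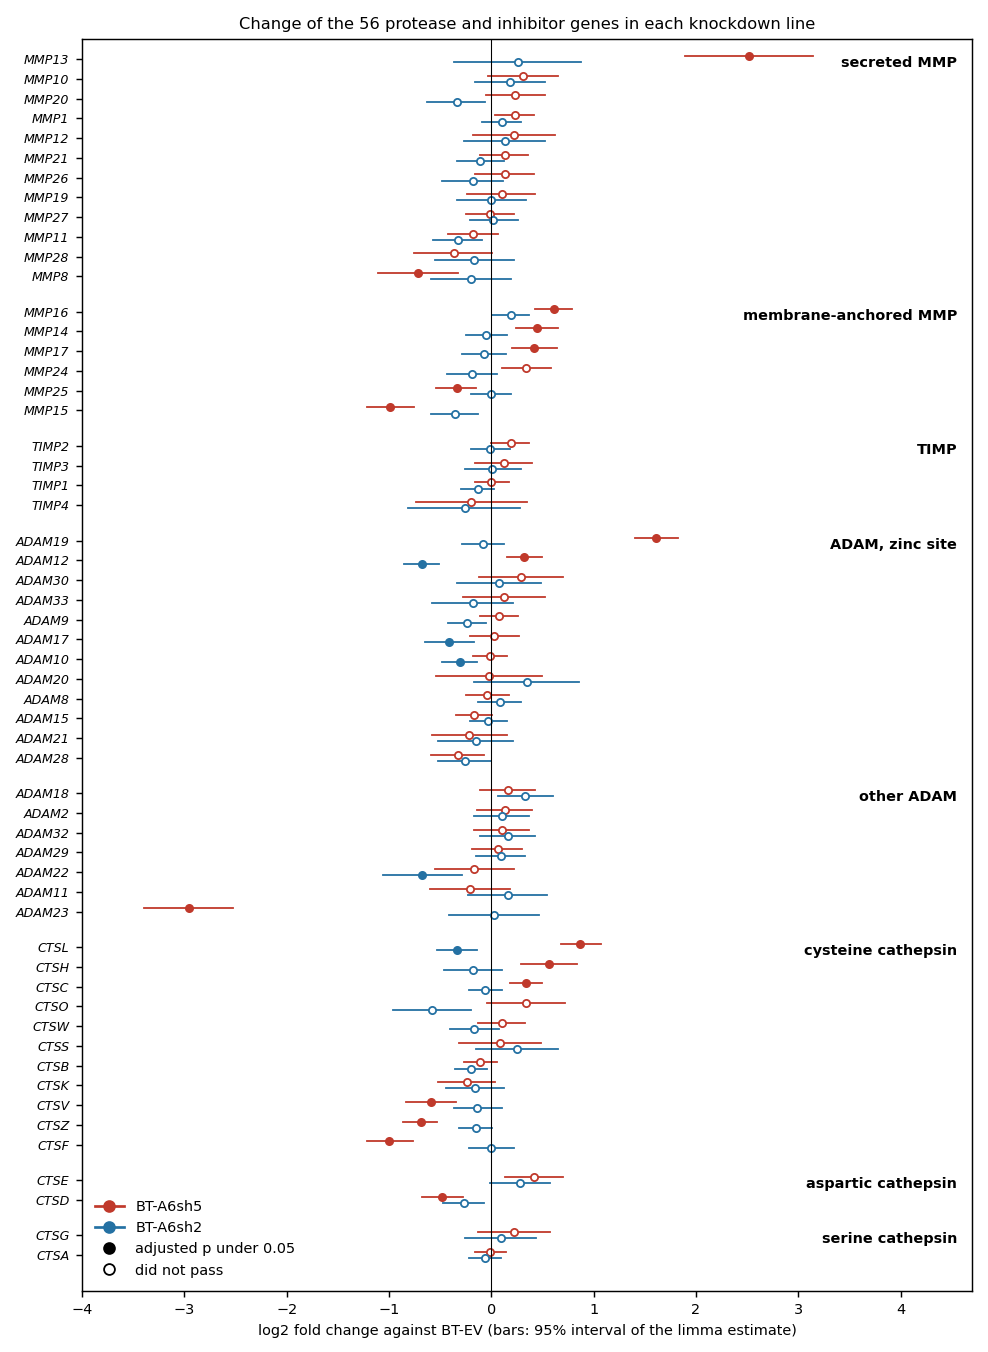
Log2 fold change against BT-EV of all 56 genes (x axis, with the 95% interval of the estimate) in BT-A6sh5 (red) and BT-A6sh2 (blue), grouped by role, with filled points where the adjusted p was under 0.05. ADAM23 at -2.95, MMP13 at 2.52 and ADAM19 at 1.61 stand farthest from 0 in BT-A6sh5, and all 4 TIMP genes lie near 0 in both lines.

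The 12 secreted MMP genes analysed do not include MMP2, MMP3, MMP7 or MMP9. Of the 12, 1 rose and 1 fell in BT-A6sh5 (8.33% each, beside 6.3% and 12.7% of all named genes). In BT-A6sh2, 0 passed, and 2 had an unadjusted p under 0.05 (limma). MMP13, collagenase-3, which cuts fibrillar collagens, measured 3.30, 3.20, 3.21 and 3.13 on the BT-EV arrays. In BT-A6sh5 it measured 5.51, 6.29, 6.0 and 5.10. In BT-A6sh2 it measured 4.30, 3.03, 3.32 and 3.22. All 4 BT-A6sh5 arrays lay above every other array, and BT-A6sh2 replicate 1 stood above the other 3 arrays of its line. The log2 fold change of MMP13 was 2.52 in BT-A6sh5 (95% interval 1.89 to 3.14, 5.72-fold, adjusted p = 0.000116). In BT-A6sh2 it was 0.26 (-0.37 to 0.88, adjusted p = 0.595), and -0.02 without replicate 1. Between the lines the difference was 2.26 (adjusted p = 0.000205). The BT-EV level of MMP13 was below the median of each BT-EV array, as it was for 19 of the 56 genes.

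MMP8, the neutrophil collagenase, fell in BT-A6sh5. It measured 4.92, 4.91, 5.12 and 5.50 on BT-EV arrays, 4.51, 4.12, 4.50 and 4.45 on BT-A6sh5 arrays, and 4.64, 4.76, 4.87 and 5.39 on BT-A6sh2 arrays. The BT-A6sh5 arrays lay below all others, whereas those of BT-A6sh2 overlapped BT-EV. The log2 fold change was -0.72 in BT-A6sh5 (adjusted p = 0.0224), beside -0.20 in BT-A6sh2 (adjusted p = 0.496), and the difference between the lines, -0.52, did not pass (adjusted p = 0.0642). The fall in BT-A6sh5 passed in 17 of the 21 alternative settings that gave a value.

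The interstitial collagenase MMP1 averaged 8.52 ± 0.14 in BT-EV and 8.75 ± 0.046 in BT-A6sh5. Its 4 BT-A6sh5 arrays lay above the 4 BT-EV arrays, but the difference of 0.23 (0.04 to 0.42) had an adjusted p of 0.142. MMP11, stromelysin-3, gave -0.18 in BT-A6sh5 (adjusted p = 0.421), beside -0.33 in BT-A6sh2 (adjusted p = 0.0773). MMP20, the enamel protease, passed in the difference between the lines (0.58, adjusted p = 0.00931) but in neither line against BT-EV (0.23 and -0.34, adjusted p = 0.37 and 0.116).

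Several MMP genes lie side by side on chromosome 11, where the protein-coding genes run in the order MMP7, MMP20, MMP27, MMP8, MMP10, MMP1, MMP3, MMP12 and MMP13 in the GRCh38.p14 gene table, with MMP7 and MMP3 not analysed here. Of the 7 analysed, MMP13 rose, MMP8 fell and 5 did not pass in BT-A6sh5 (14.3% each way, beside 6.3% and 12.7% of all named genes). In BT-EV, MMP20 (4.25), MMP27 (3.54), MMP10 (2.91) and MMP12 (3.19) averaged below the array medians of 4.97 to 5.01. Whether these genes are above background was not tested, so that their values say little about a change shared with MMP13. MMP12, macrophage metalloelastase and the immediate neighbor of MMP13 in this order among the genes analysed, measured 3.25, 3.18, 3.40 and 2.93 on BT-EV arrays and 3.38, 3.98, 3.15 and 3.13 on BT-A6sh5 arrays. These values overlapped (difference 0.22, adjusted p = 0.596). For MMP10, stromelysin-2, whose promoter window is printed above, the difference was 0.31 (adjusted p = 0.305). In BT-A6sh2, 0 of the 7 genes passed.

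**Figure D2:**
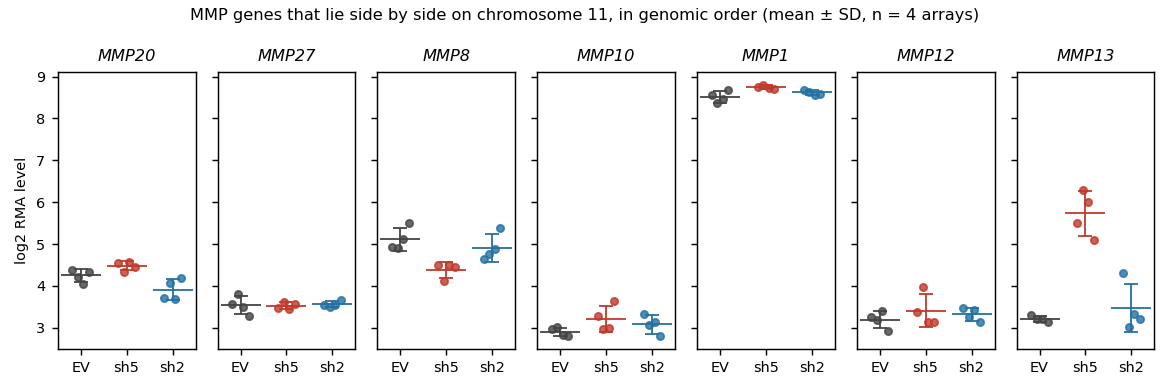
Log2 RMA level (y axis) of 7 MMP genes that lie side by side on chromosome 11, in genomic order from left to right, in BT-EV, BT-A6sh5 and BT-A6sh2, with points for the arrays and bars for the mean and SD of 4 arrays. MMP13 is higher on all 4 BT-A6sh5 arrays (5.10 to 6.29) than elsewhere, and levels are to be compared within a gene only.

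The 6 membrane-anchored MMP genes changed in both directions in BT-A6sh5, with 3 higher, 2 lower and 1 not passing. These are 50% and 33.3%, beside 6.3% and 12.7% of all named genes. All 6 differed between the knockdown lines, with 66.7% higher and 33.3% lower in BT-A6sh5, beside 11.3% and 17.3%. For MMP24 and MMP25 this holds for the transcript cluster of highest mean, and their other clusters did not pass. In BT-A6sh2, 0 of the 6 passed against BT-EV (limma), and 2 had an unadjusted p under 0.05. MMP14, a transmembrane collagenase of the invading cell edge, measured 10.38, 10.46, 10.34 and 10.43 on BT-EV arrays, 10.86, 10.91, 10.91 and 10.70 on BT-A6sh5 arrays and 10.50, 10.22, 10.45 and 10.24 on BT-A6sh2 arrays. It was higher on every BT-A6sh5 array than on the other 8, by 0.45 over BT-EV (0.24 to 0.65, adjusted p = 0.00794). The value in BT-A6sh2 was -0.05 (adjusted p = 0.764), and the lines differed by 0.50 (adjusted p = 0.00313).

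MMP16, another transmembrane MMP, measured 9.82, 9.86, 9.81 and 9.73 on BT-EV arrays, 10.49, 10.46, 10.36 and 10.33 on BT-A6sh5 arrays and 9.96, 10.05, 9.87 and 10.07 on BT-A6sh2 arrays. The groups did not overlap, and the log2 fold change was 0.61 in BT-A6sh5 (adjusted p = 0.000452), beside 0.19 in BT-A6sh2 (adjusted p = 0.168). MMP15, also transmembrane, moved the other way. It measured 7.74, 7.91, 7.78 and 7.66 on BT-EV arrays, 6.91, 6.69, 6.93 and 6.59 on BT-A6sh5 arrays and 7.51, 7.34, 7.50 and 7.29 on BT-A6sh2 arrays. All 8 knockdown arrays lay below BT-EV, with 50.4% of the BT-EV level in BT-A6sh5 (log2 fold change -0.99, -1.22 to -0.76, adjusted p = 6.94e-05). The BT-A6sh2 value of -0.36 missed the threshold (adjusted p = 0.054), and the lines differed by -0.63 (adjusted p = 0.0015).

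MMP17 and MMP25 are held at the membrane by a lipid anchor. MMP17 rose by 0.42 in BT-A6sh5 (adjusted p = 0.016), with a value of -0.07 in BT-A6sh2 (adjusted p = 0.659), and the rise passed in 17 of 22 alternative settings. MMP25 fell by 0.34 in BT-A6sh5 (adjusted p = 0.0254), with a value of -0.00 in BT-A6sh2 (adjusted p = 0.98). The other transcript clusters of MMP25 had -0.32 (adjusted p = 0.196) and -0.03 (adjusted p = 0.941) in BT-A6sh5, and the fall passed in 13 of 22 alternative settings. Between the lines MMP25 differed by -0.34 (adjusted p = 0.019, limma), while its other clusters had -0.36 (adjusted p = 0.0838) and 0.17 (adjusted p = 0.389). MMP24, a transmembrane enzyme best known from the nervous system, had 0.34 in BT-A6sh5 (adjusted p = 0.0744) and differed between the lines by 0.53 (adjusted p = 0.00551), while its other transcript cluster had -0.17 (adjusted p = 0.474), so that its clusters disagree in sign.

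Of the 4 TIMP genes, 0 passed in either line or between the lines (limma), and the counts at an unadjusted p under 0.05 were 0, 0 and 1. The lowest adjusted p in BT-A6sh5 was that of TIMP2, at 0.247. TIMP1 measured 11.80, 11.82, 11.79 and 11.90 on BT-EV arrays, 11.82, 11.87, 11.88 and 11.76 on BT-A6sh5 arrays and 11.74, 11.72, 11.69 and 11.64 on BT-A6sh2 arrays. BT-A6sh5 overlapped BT-EV, and the difference was 0.00 with a 95% interval of -0.16 to 0.17. The BT-A6sh2 arrays all lay below BT-EV, by an estimate of -0.13 (-0.30 to 0.03, adjusted p = 0.26).

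TIMP2, which both inhibits MMPs and takes part in MMP activation at the cell surface, measured 10.27, 10.34, 10.42 and 10.49 on BT-EV arrays, 10.53, 10.51, 10.60 and 10.62 on BT-A6sh5 arrays and 10.41, 10.49, 10.29 and 10.29 on BT-A6sh2 arrays. The BT-A6sh5 arrays lay above BT-EV without overlap, with an interval of the difference from -0.00 to 0.37. TIMP3, which stays bound to the matrix, averaged 4.51 ± 0.13 in BT-EV, and its differences were 0.12 (-0.16 to 0.40) in BT-A6sh5 and 0.01 (-0.26 to 0.29) in BT-A6sh2. The other TIMP3 cluster averaged 4.21 in BT-EV, with 0.17 (-0.24 to 0.59) in BT-A6sh5 and -0.18 (-0.6 to 0.23) in BT-A6sh2. Both TIMP3 clusters lay below the BT-EV array medians of 4.97 to 5.01, and whether they are above background was not tested. TIMP4 spread most in BT-A6sh2 (4.72 to 6.25), and its differences were -0.20 (-0.74 to 0.35) and -0.26 (-0.81 to 0.28). The intervals of TIMP1, TIMP2 and the TIMP3 cluster of highest mean lay within 0.40 on either side of 0 in both lines. Those of the other TIMP3 cluster and of TIMP4 did not.

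Among the 12 ADAM genes with a catalytic zinc site, 2 rose in BT-A6sh5 (16.7%) and 0 fell, beside 6.3% and 12.7% of all named genes. In BT-A6sh2, 0 rose and 3 fell (25%), beside 5.13% and 4.78%, and only the fall of ADAM12 passed in every alternative setting. Between the lines, 5 were higher in BT-A6sh5 (41.7%) and 0 lower, beside 11.3% and 17.3%. ADAM19, known for cleaving neuregulin, measured 8.26, 8.41, 8.47 and 8.43 on BT-EV arrays, 10.02, 10.01, 10.06 and 9.92 on BT-A6sh5 arrays and 8.40, 8.09, 8.42 and 8.33 on BT-A6sh2 arrays. Every BT-A6sh5 array lay above every other array. The rise was 1.61 (1.40 to 1.82, 3.06-fold, adjusted p = 4.93e-07), the value in BT-A6sh2 was -0.08 (adjusted p = 0.603), and the lines differed by 1.69 (adjusted p = 2.78e-07).

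ADAM12, which releases the growth factor HB-EGF, moved in opposite directions in the knockdown lines. It measured 10.99, 11.06, 10.99 and 11.05 on BT-EV arrays, 11.42, 11.34, 11.30 and 11.33 on BT-A6sh5 arrays and 10.23, 10.32, 10.43 and 10.39 on BT-A6sh2 arrays. No groups overlapped. The log2 fold change was 0.32 in BT-A6sh5 (1.25-fold, adjusted p = 0.0196), beside -0.68 in BT-A6sh2 (62.4% of BT-EV, adjusted p = 0.000881), and the lines differed by 1.00 (adjusted p = 5.08e-06). The fall in BT-A6sh2 was -0.64 (adjusted p = 0.00186) without replicate 1. It passed in all 22 alternative settings, and the rise in BT-A6sh5 passed in 17 of them.

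ADAM10 and ADAM17, the major sheddases of Notch and of tumor necrosis factor, fell in BT-A6sh2. ADAM10 measured 11.04, 10.97, 11.08 and 11.04 on BT-EV arrays, 11.10, 11.04, 10.92 and 11 on BT-A6sh5 arrays and 10.63, 10.73, 10.75 and 10.77 on BT-A6sh2 arrays, where all 4 arrays lay below the others. Its log2 fold change was -0.31 in BT-A6sh2 (adjusted p = 0.0324) and -0.01 in BT-A6sh5 (adjusted p = 0.953). ADAM17 measured 9.36, 9.34, 9.36 and 9.36 on BT-EV arrays, 9.52, 9.51, 9.29 and 9.21 on BT-A6sh5 arrays and 8.74, 9.04, 8.85 and 9.15 on BT-A6sh2 arrays. It fell by 0.41 in BT-A6sh2 (adjusted p = 0.0429) and had 0.03 in BT-A6sh5 (adjusted p = 0.933). Without BT-A6sh2 replicate 1, whose description names the other shRNA, neither fall passed (adjusted p = 0.0542 for ADAM10 and 0.081 for ADAM17). Without any single BT-EV array, ADAM12 was the only fall in BT-A6sh2 that passed. ADAM9, another sheddase, differed between the lines (0.31, adjusted p = 0.0248), while its BT-A6sh2 value of -0.24 did not pass (adjusted p = 0.102).

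Among the 7 other ADAM genes, 0 rose and 1 fell in BT-A6sh5 (14.3%, beside 12.7% of all named genes). For BT-A6sh2 the only call was the fall of ADAM22 (14.3%, beside 4.78%), which passed in 6 of 22 alternative settings. ADAM23, which lacks a working zinc site and binds the secreted protein LGI1 in brain, measured 7.67, 7.67, 7.70 and 7.65 on BT-EV arrays and 7.59, 7.66, 7.81 and 7.75 on BT-A6sh2 arrays. In BT-A6sh5 it measured 4.95, 5.25, 4.04 and 4.63. The BT-A6sh5 arrays lay more than 2 log2 units below all others, and BT-A6sh2 overlapped BT-EV. The log2 fold change in BT-A6sh5 was -2.95 (-3.39 to -2.52, adjusted p = 1.61e-06). The mean of 4.72 there lay below the medians of the BT-A6sh5 arrays (4.99 to 5.05), and whether the level that remained is above background was not tested. In BT-A6sh2 it was 0.03 (-0.41 to 0.47, adjusted p = 0.938), and the lines differed by -2.98 (adjusted p = 1.35e-06).

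The related ADAM22 fell in BT-A6sh2, from 5.37, 5.09, 5.56 and 5.36 on BT-EV arrays to 4.40, 4.86, 4.39 and 5.03 (log2 fold change -0.68, adjusted p = 0.0394). The groups did not overlap. In BT-A6sh5 its value was -0.17 (adjusted p = 0.703), and the difference between the lines did not pass (0.51, adjusted p = 0.0649). Without BT-A6sh2 replicate 1 the fall was -0.58 and did not pass (adjusted p = 0.0821). ADAM11, of the same group, had -0.21 in BT-A6sh5 (adjusted p = 0.613), beside 0.16 in BT-A6sh2 (adjusted p = 0.599).

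**Figure D3:**
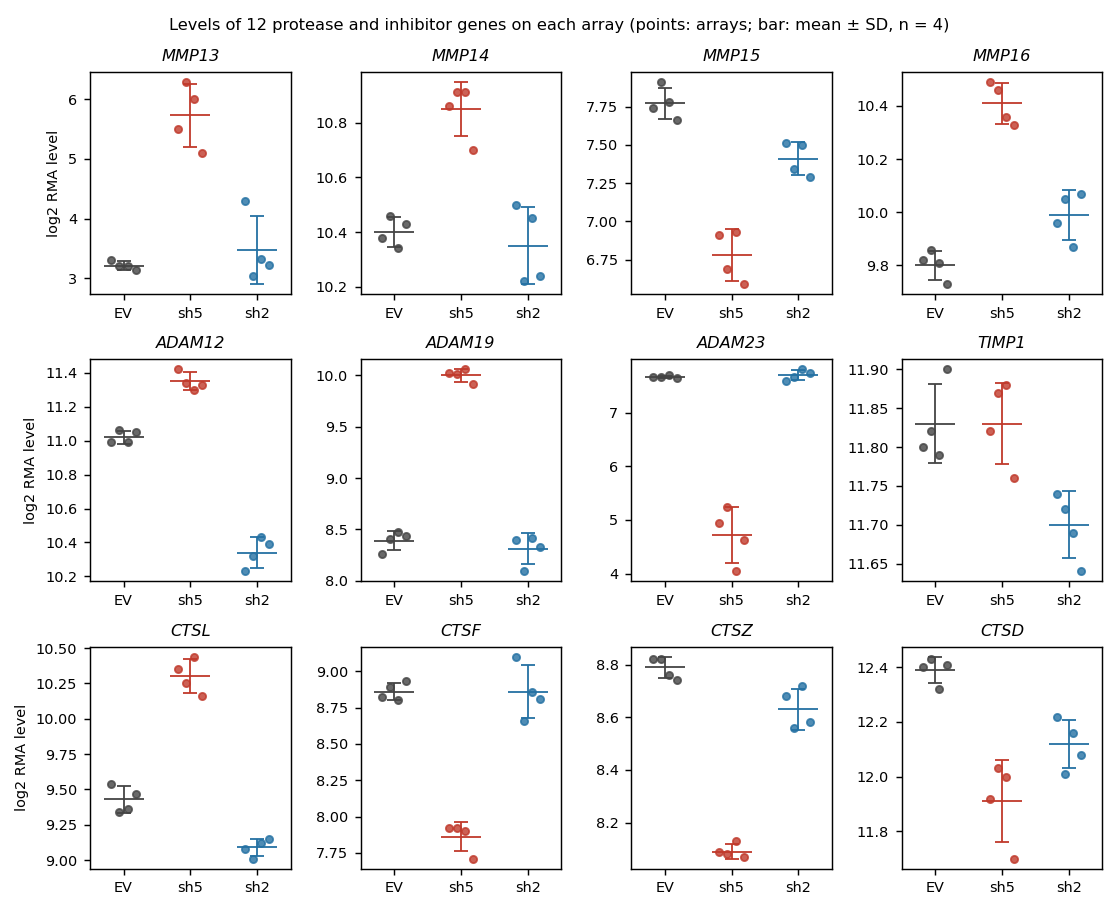
Log2 RMA level (y axis, scaled for each gene and not starting at 0) of 12 genes in BT-EV, BT-A6sh5 and BT-A6sh2, with points for the arrays and bars for the mean and SD of 4 arrays. ADAM19, MMP13 and CTSL are highest and ADAM23, CTSF and MMP15 lowest in BT-A6sh5, while ADAM12 lies above BT-EV in BT-A6sh5 and below it in BT-A6sh2.

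Of the 11 cysteine cathepsins, 3 rose, 3 fell and 5 did not pass in BT-A6sh5 (27.3% each way, beside 6.3% and 12.7% of all named genes). In BT-A6sh2, 1 fell (9.09%, beside 4.78%) and 10 did not pass. Between the lines 4 were higher in BT-A6sh5 and 3 lower (36.4% and 27.3%, beside 11.3% and 17.3%). CTSL, a lysosomal endopeptidase that tumor cells also secrete, measured 9.54, 9.34, 9.36 and 9.47 on BT-EV arrays, 10.35, 10.25, 10.44 and 10.16 on BT-A6sh5 arrays and 9.08, 9.01, 9.12 and 9.15 on BT-A6sh2 arrays. No groups overlapped. CTSL rose by 0.87 in BT-A6sh5 (0.68 to 1.07, 1.83-fold, adjusted p = 5.12e-05) and fell by 0.34 in BT-A6sh2 (79.2% of BT-EV, adjusted p = 0.0406). The lines differed by 1.21 (adjusted p = 3.04e-06), whereas the fall in BT-A6sh2 did not pass without replicate 1 (adjusted p = 0.0625).

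CTSF, a lysosomal cysteine protease mutated in an inherited neuronal storage disease, measured 8.82, 8.89, 8.80 and 8.93 on BT-EV arrays, 7.92, 7.92, 7.90 and 7.71 on BT-A6sh5 arrays and 9.10, 8.66, 8.86 and 8.81 on BT-A6sh2 arrays. BT-A6sh5 lay below the other lines on every array, at 50.1% of the BT-EV level (log2 fold change -1.0, just short of 2-fold, adjusted p = 5.39e-05), and BT-A6sh2 overlapped BT-EV. CTSZ, a carboxypeptidase, measured 8.82, 8.82, 8.76 and 8.74 on BT-EV arrays, 8.09, 8.08, 8.13 and 8.07 on BT-A6sh5 arrays and 8.68, 8.56, 8.72 and 8.58 on BT-A6sh2 arrays. It was lower on all 8 knockdown arrays than on those of BT-EV, by 0.69 in BT-A6sh5 (adjusted p = 7.97e-05), while the value of -0.15 in BT-A6sh2 did not pass (adjusted p = 0.209). CTSV, the close relative of CTSL, fell by 0.59 in BT-A6sh5 (adjusted p = 0.00388), beside -0.14 in BT-A6sh2 (adjusted p = 0.446).

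CTSC, a dipeptidyl peptidase that activates granule proteases, rose by 0.34 in BT-A6sh5 (adjusted p = 0.00936), with -0.06 in BT-A6sh2 (adjusted p = 0.625). CTSH, an aminopeptidase, measured 6.07, 5.98, 5.61 and 5.87 on BT-EV arrays, 6.42, 6.43, 6.46 and 6.48 on BT-A6sh5 arrays and 5.92, 5.45, 5.86 and 5.57 on BT-A6sh2 arrays. The BT-A6sh5 arrays were the highest (0.56, adjusted p = 0.0125), and the lines differed by 0.75 (adjusted p = 0.00169). CTSO passed only in the difference between the lines (0.92, adjusted p = 0.00318), with 0.34 in BT-A6sh5 (adjusted p = 0.307), beside -0.58 in BT-A6sh2 (adjusted p = 0.0599).

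The aspartic cathepsin CTSD, an abundant lysosomal protease, measured 12.40, 12.43, 12.32 and 12.41 on BT-EV arrays, 11.92, 12.03, 12 and 11.70 on BT-A6sh5 arrays and 12.22, 12.01, 12.16 and 12.08 on BT-A6sh2 arrays. All 8 knockdown arrays lay below BT-EV. The log2 fold change was -0.48 in BT-A6sh5 (71.7% of BT-EV, adjusted p = 0.00496), beside -0.27 in BT-A6sh2 (adjusted p = 0.0872), and the difference between the lines did not pass (-0.21, adjusted p = 0.141). CTSE, the other aspartic cathepsin, had 0.42 in BT-A6sh5 (adjusted p = 0.068). Neither serine cathepsin passed. CTSA, the protective protein of lysosomal neuraminidase, had -0.01 (-0.16 to 0.14) in BT-A6sh5 and -0.06 (-0.22 to 0.09) in BT-A6sh2, and CTSG, a neutrophil granule protease, had 0.22 (adjusted p = 0.54) and 0.09 (adjusted p = 0.759). CD68, a lysosomal glycoprotein also used as a macrophage marker, averaged 11 in BT-EV and rose by 0.55 in BT-A6sh5 (adjusted p = 0.00171), beside 0.01 in BT-A6sh2 (adjusted p = 0.95).

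The wider protease system was described from a list of 55 further measured genes. The list was written with earlier results of these data known, so that its shares are a description and cannot test an excess. In BT-A6sh5, 12 rose and 5 fell (21.8% and 9.09%, beside 6.3% and 12.7% of all named genes), 7 and 2 of them among 25 other proteases, 4 and 2 among 26 inhibitors and processing factors, and 1 and 1 among 4 genes of the plasminogen system. As written, these lists held 33, 33 and 8 genes, and the rest, PLAU, PLAUR and PLAT among them, were not analysed here. The 4 plasminogen-system genes were PLG, S100A10, VLDLR, which rose, and LRP1, which fell. In BT-A6sh2, 2 rose and 4 fell (3.64% and 7.27%, beside 5.13% and 4.78%). The 2 largest changes in BT-A6sh5 were those of cell-surface peptidases, CPM and MME. MME, neprilysin, measured 8.16, 8.14, 8.17 and 8.25 on BT-EV arrays, 11.63, 11.64, 11.64 and 11.48 on BT-A6sh5 arrays and 8.23, 8.20, 8.21 and 8.38 on BT-A6sh2 arrays. Only BT-A6sh5 stood apart, by 3.42 (10.7-fold, adjusted p = 3.63e-10), against 0.08 in BT-A6sh2 (adjusted p = 0.577).

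CPM, a membrane carboxypeptidase, measured 6.17, 6.0, 6.25 and 6.32 on BT-EV arrays, 9.94, 9.88, 9.87 and 9.91 on BT-A6sh5 arrays and 6.47, 6.64, 6.63 and 6.48 on BT-A6sh2 arrays. It rose in both lines, by 3.72 in BT-A6sh5 (13.2-fold, adjusted p = 3.63e-10) and by 0.37 in BT-A6sh2 (adjusted p = 0.0302, passed in 13 of 22 alternative settings). PAPPA2, a secreted metalloprotease that cuts insulin-like growth factor binding proteins, rose by 2.76 in BT-A6sh5 (6.77-fold, adjusted p = 1.51e-06), with 0.35 in BT-A6sh2 (adjusted p = 0.241). TLL1, a procollagen-processing protease, rose by 1.31 in BT-A6sh5 (adjusted p = 0.000245), with 0.25 in BT-A6sh2 (adjusted p = 0.353). Falls of more than 2-fold in BT-A6sh5 were those of LRP1 (log2 fold change -1.22, adjusted p = 2.72e-05) and ADAMTSL5 (-1.1, adjusted p = 3.04e-05). ECE1 also fell there (-0.41, adjusted p = 0.00995). Unlike LRP1, both ADAMTSL5 and ECE1 passed as falls in the other knockdown line too, at -0.43 and -0.36 (adjusted p = 0.0312 and 0.031). The alternative settings were not run for LRP1, ADAMTSL5 or ECE1.

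In BT-A6sh2 the 2-fold changes of this list were falls. DPP4, a dipeptidyl peptidase of the cell surface, measured 7.11, 6.99, 7.17 and 7.25 on BT-EV arrays, 7.98, 7.85, 7.53 and 7.17 on BT-A6sh5 arrays and 5.69, 6.25, 5.55 and 6.19 on BT-A6sh2 arrays. It fell to 43.2% of the BT-EV level in BT-A6sh2 (log2 fold change -1.21, adjusted p = 0.00577) and had 0.51 in BT-A6sh5 (adjusted p = 0.152). CST4, a secreted inhibitor of cysteine proteases, fell by 1.14 in BT-A6sh2 (adjusted p = 0.0177), with the arrays spread from 4.44 to 5.81, and it has near-identical relatives whose transcripts the probes may share.

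**Figure D4:**
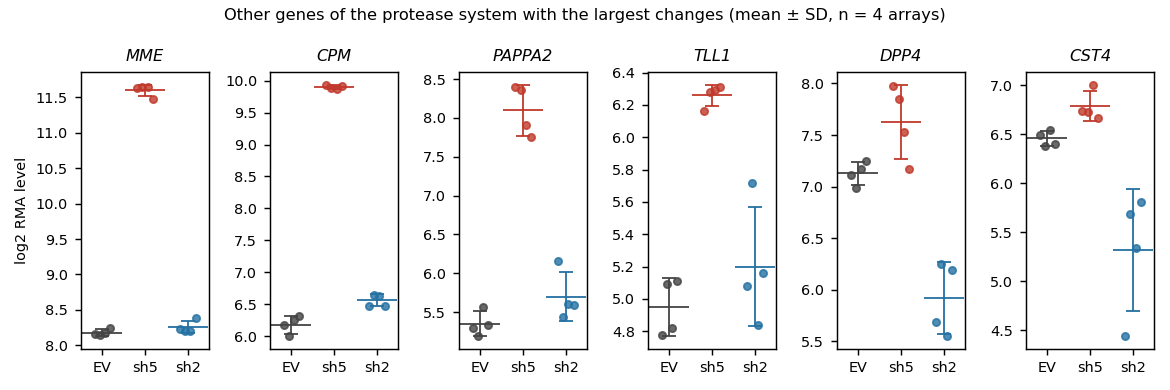
Log2 RMA level (y axis, scaled for each gene and not starting at 0) of 6 other genes of the protease system in BT-EV, BT-A6sh5 and BT-A6sh2, with points for the arrays and bars for the mean and SD of 4 arrays. MME, CPM, PAPPA2 and TLL1 are highest in BT-A6sh5, and DPP4 and CST4 are lowest in BT-A6sh2.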

How the data were processed

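Gene expression was measured in BT-549 derivatives on 12 arrays, 4 for each line. The deposited values are log2 levels that the authors made with Affymetrix Expression Console and RMA. Versions of affy, RMA and limma, the tools of the submitters' processing notes, are not given in the sources used. The levels were used as deposited for all 53617 transcript clusters. Of these, 16098 had 1 symbol in the platform annotation, and 37519 had no symbol or several and were not named here. No value was missing and 0 pairs of arrays were identical. The number of arrays limits the precision. The arrays keep no read depth, and levels were compared only within a transcript cluster.

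The 3 groups were fitted by lmFit and eBayes of limma 3.58.1 under R 4.3.3 (two-sided tests, 9 residual and 2.68 prior degrees of freedom) on all transcript clusters, with Benjamini-Hochberg adjustment within each comparison. Tables and motif searches used Python 3.11.15 and pandas 2.3.3, and figures matplotlib 3.10.9. RefSeq tables of GRCh38.p14 supplied promoter sequences and gene order.

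The members and lists were chosen with earlier results of these data known. A gene was named if it passed an adjusted p of 0.05 with a 2-fold change in any comparison, or passed in both lines. That rule was not applied in full to the wider protease list, where LRP1, ADAMTSL5, ECE1 and HPSE met it but were not plotted. Between the lines, HPSE differed by 1.01 (adjusted p = 2.9e-05). Also named were the 2 genes of highest BT-EV mean in each role group, and the TIMP genes. A further 13 genes with smaller called changes were named after their values were seen. Roles were assigned from general knowledge of the families. The alternatives were array weights, each pair of lines alone, a mean over transcript clusters, median centring, repeated quantile normalization, a replicate block, a filter at the median, a 1.2-fold test (treat), a trended robust prior, and arrays left out. Replicate numbers did not pair the arrays.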

Additional observations from a re-analysis of the deposited data

Results flagged for a closer look

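Of 102 sets of 4 arrays tested over 34 named genes, 4 (3.92%) held an array whose gap to the others, divided by the range of the set, exceeded Dixon's critical value at the 95% level, and chance gives such a gap in about 1 set in 20. ADAM11 measured 6.19 on 1 BT-A6sh2 array against 6.94 to 7.01 on the others (ratio 0.912), and the gene passed in no comparison. CTSF measured 7.71 on 1 BT-A6sh5 array against 7.90 to 7.92 (0.912), and MMP8 measured 4.12 on 1 BT-A6sh5 array against 4.45 to 4.51 (0.839), so that the lone array lay farther from BT-EV than the rest of its line in both genes. CTSG measured 5.27 on 1 BT-EV array against 4.89 to 4.94 (0.866).

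The knockdown lines differed in 21 genes by the direct test of BT-A6sh5 against BT-A6sh2 in the same limma fit. The log2 difference was higher in BT-A6sh5 for MMP13 (2.26), ADAM19 (1.69), CTSL (1.21), ADAM12 (1.00), CTSO (0.92), CTSH (0.75), MMP20 (0.58), MMP24 (0.53), MMP14 (0.50), MMP17 (0.50), ADAM17 (0.44), MMP16 (0.42), CTSC (0.40), ADAM9 (0.31) and ADAM10 (0.30). It was lower for ADAM23 (-2.98), CTSF (-1.0), MMP15 (-0.63), CTSZ (-0.54), CTSV (-0.45) and MMP25 (-0.34). The other transcript clusters of MMP24 and MMP25 did not pass. For ADAM12 and CTSL the lines lay on opposite sides of BT-EV, and 4 of these genes, ADAM9, CTSO, MMP20 and MMP24, passed in neither line against BT-EV. Without BT-A6sh2 replicate 1 all 21 differences still passed, and without its replicates 1 and 3 together 6 did not (ADAM9, ADAM10, ADAM17, CTSV, MMP20 and MMP25). ANXA6 itself differed between the lines by -1.67, and a difference between shRNAs, between derivative lines and in the degree of knockdown cannot be told apart.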

How the results depend on the processing

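Over 22 alternative settings, 0 of the values that had passed changed sign, 1093 of 1228 still passed and 135 did not. The 1.2-fold test, the trended prior, the replicate block, the median filter and each pair fitted alone keep the fold changes. In these, and where the array left out belonged to the line not compared, the sign could not change. Of 1400 values that had not passed, 40 passed in an alternative. In BT-A6sh5, 8 of the 17 called genes passed in every setting run (ADAM19, ADAM23, CTSF, CTSL, CTSZ, MMP13, MMP15 and MMP16) and 13 did so apart from the 1.2-fold test, under which the counts were 4 higher and 4 lower. The other 4 were ADAM12 and MMP17 (17 of 22 settings), MMP8 (17 of 21) and MMP25 (13 of 22). Leaving out 1 array gave 7 to 10 higher and 6 to 9 lower. Between the lines, 10 of 21 passed in every setting, the 1.2-fold test left 6 higher, and leaving out 1 array gave 12 to 16 higher and 5 to 7 lower. The 5 falls in BT-A6sh2 depended on the setting. Only ADAM12 passed in all 22 (-0.71 to -0.63), whereas ADAM10 passed in 11, CTSL in 8, ADAM17 in 7 and ADAM22 in 6. The count of falls was 1 with array weights, with each pair of lines fitted alone, with median centring, with the 1.2-fold test, with the replicate block and without BT-A6sh2 replicates 1 and 3 together, 9 with a trended robust prior and 11 above the median filter, which tested 37 of the 56 genes. Leaving out 1 array gave 1 to 7 falls, with 1 without any of the BT-EV arrays or BT-A6sh2 replicate 1, 2 without BT-A6sh2 replicate 3 or BT-A6sh5 replicate 1, and 3 without BT-A6sh5 replicate 2 or 3. The cause was not tested. Same-numbered arrays did not deviate together (correlations from -0.0764 to 0.0497), so the numbers do not pair the arrays, and the replicate block gave 8 higher and 7 lower in BT-A6sh5 and 13 higher and 6 lower between the lines. MMP13, MMP20, MMP8 and TIMP3 have no value above the median filter.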
